A study of Mus musculus with 4 samples.

Results

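Plasma cell nuclei were sought in 4 single-nucleus RNA libraries from mice on a high-fat diet, and 93 of 36690 nuclei met the rule used to choose them. The members were chosen by the detected RNA of 6 plasma cell genes, 3 B cell genes and 4 epithelial genes in each nucleus, so the values of these 13 genes are descriptions and support nothing. The rule kept barcodes with at least 300 genes and less than 10% mitochondrial UMIs (unique molecular identifiers, each marking 1 captured RNA molecule). It then asked for at least 3 of Jchain, Mzb1, Tnfrsf17, Derl3, Igha and Xbp1, of which Mzb1, Tnfrsf17 or Derl3 had to be one, with fewer than 2 of the B cell genes Bank1, Pax5 and Ms4a1 and fewer than 3 of the epithelial genes Epcam, Krt8, Krt18 and Cdh1. The study set surgery against sham surgery in tissue labelled brown adipose (BAT) and beige adipose (BeAT), with 1 library for sham and 1 for surgery in each tissue, named here BAT sham and BAT surgery, and BeAT sham and BeAT surgery. All 4 groups had the high-fat diet. The sources used here do not give the kind of surgery, the time after it, or the strain, sex, age and number of the mice. Because each group is 1 library, no difference between groups could be tested, and every interval given is an exact 95% interval that covers counting error only.

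Plasma cells are the antibody-secreting end state of the B cell lineage. During their formation Blimp-1 (the product of Prdm1) and Irf4 switch off the B cell programme, and Xbp1 enlarges the endoplasmic reticulum, where antibody chains are translocated, folded, assembled and, when misfolded, sent for degradation. A plasma cell makes heavy chains of 1 constant region class and light chains of either kappa or lambda. Lymph nodes and fat-associated lymphoid clusters lie within adipose depots, and IgM is also made by B-1 cells of the body cavities.

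The libraries held between 23118695 and 60409801 UMIs and between 5949 and 10416 kept nuclei, with a median of 2777 to 5373 UMIs per kept nucleus, highest in BAT surgery. The tissue labels were set against marker genes. Ucp1, the defining gene of thermogenic fat, had 3 UMIs in the BAT sham library and 28 after surgery, and in BeAT 6 UMIs in the sham library and 1 after surgery. Adipoq, the adipocyte hormone gene, was detected in 63.5% of BAT sham and 69.0% of BeAT sham nuclei but in 10.8% of BAT surgery and 13.5% of BeAT surgery nuclei. In BAT surgery the epididymal gene Gpx5 was detected in 93.6% of nuclei, against 0 UMIs in each of the other libraries. In BeAT surgery Bank1 was detected in 50.7% of nuclei and Ms4a1 in 25.9%, against at most 11.0% and 0.490% in the others. Surgery and these differences in the cells captured cannot be told apart. Of the barcodes, 310 occurred in 2 or more libraries. They include 3 of the BAT surgery members, none of which was also a member in the other library.

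Members were found mainly in BAT surgery. The rule was met by 3 of 10416 nuclei in BAT sham (0.0288%, interval 0.00594% to 0.0841%) and by 80 of 9942 in BAT surgery (0.805%, 0.639% to 1.0005%). In BeAT sham it was met by 0 of 10383, which allows a share of up to 0.0289% as 3 counts of the total (exact upper limit 0.0355%), and in BeAT surgery by 10 of 5949 (0.168%, 0.0806% to 0.309%). The share was 27.9 times as high in BAT surgery as in BAT sham (9.22 to 138) and at least 5.82-fold higher in BeAT surgery than the floor of 3 counts in BeAT sham, with an exact lower limit of 3.91 for the ratio once the counting error of the 10 members is included. With every nucleus thinned to 1000 UMIs, the BAT ratio was 3.05 and rested on 6 and 2 members. When members were also required to have no epithelial marker, it was 8.73. The median depth of members was 6137.5 UMIs in BAT surgery, 2849.5 in BeAT surgery and 2749 in BAT sham.

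**Figure D1:**
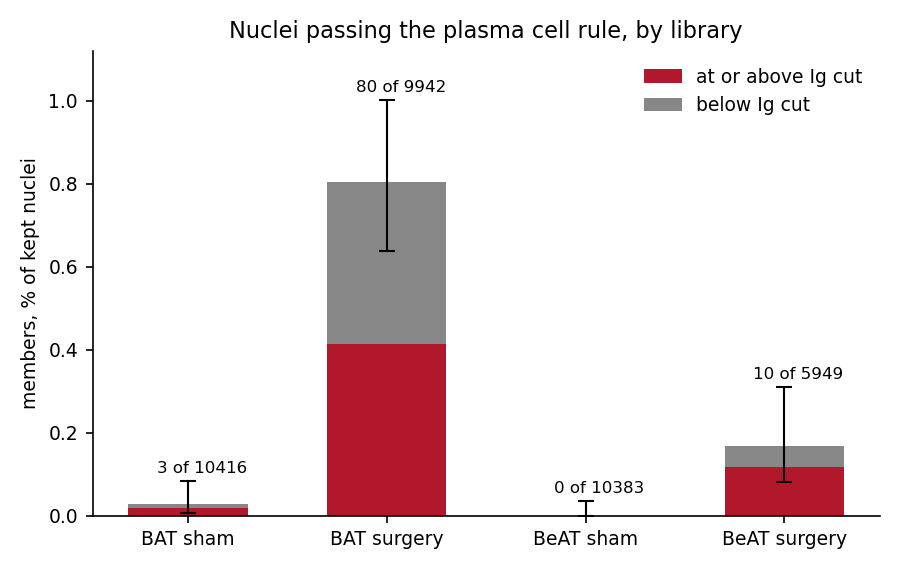
Members as a percentage of kept nuclei in each of the 4 libraries, with lines for the exact 95% binomial interval of the whole bar and with colours for members at or above and below the immunoglobulin cut of 0.404%. The 80 members of BAT surgery make the tallest bar at 0.805%, and BeAT sham has none.

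The label was next checked with immunoglobulin RNA, of which only Igha belongs to the rule. UMIs of 392 heavy and light chain genes were summed in each nucleus and set against a cut of 0.404%, the 99th percentile among the 931 BAT surgery nuclei that carried at least 3 epithelial markers and were not members. At or above the cut were 50 of the 93 members, 41 of them in BAT surgery, 7 in BeAT surgery and 2 in BAT sham. In the 41 BAT surgery members at or above it, 6100 of 201195 UMIs came from immunoglobulin genes (3.03%), and the share of a nucleus ran from 0.411% over a median of 1.61% to 33.1%. The 39 members below it had 321 of 452299 UMIs (0.0710%), and 8 of them had none. Antibody RNA above that level was thus present in 50 of the 93 members, and in 47 when Igha was left out of the sum (40 in BAT surgery, 5 in BeAT surgery and 2 in BAT sham). Nuclei with B cell markers also reached the cut. In BAT surgery their median share was 0.258% and their 99th percentile 3.66%, so passing the cut does not set members apart from B cells. At this cut the remaining members are described by the rule alone. The cut comes from BAT surgery but was used for every library. In nuclei with macrophage markers the 99th percentile was 0.598% in BAT surgery, 0.122% in BeAT surgery and 0.108% in BAT sham. The 3 BeAT surgery members below the cut had 0.127% to 0.337%, and B-marker nuclei there a median of 0.168%. The BAT sham member below it had 0.0614%. The cut divides a range and not a pair of separate classes: 9 members lay between 0.202% and the cut, and 15 between the cut and 0.809%. A cut of 0.598%, from nuclei with macrophage markers, left 41 members above it, and a cut of 0.106% left 64.

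A single nucleus carried 33.2% of the immunoglobulin UMIs of the 41, and without it their share was 2.09%. That nucleus had 6122 UMIs, of which 901 were Ighm, 1067 Igkc and 75 Jchain. The 7 BeAT surgery members at or above the cut had 434 immunoglobulin UMIs of 33181 (1.31%, with 0.532% to 4.28% per nucleus). The 2 BAT sham members above it had 331 of 2131 UMIs (15.5%) and 85 of 2749 (3.09%). The BAT sham member below the cut met the rule through 1 UMI of Tnfrsf17, 1 of Igha and 2 of Xbp1, and carried 86 UMIs of an 8-gene macrophage list. Tnfrsf17, the receptor gene for the plasma cell survival factor APRIL, was detected in 5.12% of the 1347 BAT sham nuclei with macrophage markers and in 2 of the 80 BAT surgery members.

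**Figure D2:**
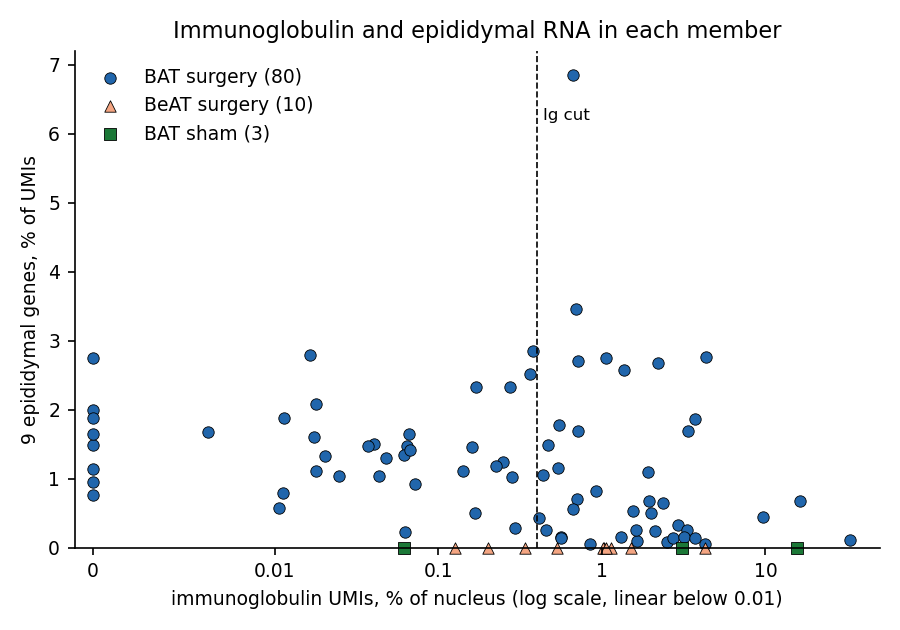
Immunoglobulin UMIs (horizontal, percent of the nucleus on a log scale that is linear below 0.01) and UMIs of 9 epididymal genes (vertical, percent of the nucleus) in each of the 93 members, with the cut of 0.404% as a dashed line. BAT surgery members spread from 0 to 33.1% immunoglobulin, and members of the other libraries lie at 0 on the vertical axis.

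The members on either side of the cut met the rule differently in BAT surgery. Exactly 3 of the 6 markers were detected in 38 of the 39 below the cut and in 23 of the 41 at or above it. Among those below, 20 met the rule with single UMIs alone, against 5 of those above. Derl3 and Xbp1 were both present in 32 of the 39 and 22 of the 41. Both genes were also detected in the 931 nuclei with epithelial markers, Derl3 in 29.0% and Xbp1 in 44.4%, at a median of 9388 UMIs, whereas Jchain was detected in 7.41% and Mzb1 in 2.36% of them. Of these 931 nuclei, 32 (3.44%) met the marker part of the rule. The median depth was 9830 UMIs below the cut and 4278 above it.

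Epididymal RNA was present in BAT surgery members of either kind. The 9 genes of the epididymal list made up a median of 1.42% of UMIs in members below the cut (0.229% to 2.86%) and 0.566% in those at or above it (0.0589% to 6.86%), and had 0 UMIs in members of BAT sham and BeAT surgery. Gpx5, an epididymal secreted peroxidase gene, stood at 4786 CPM (a gene's UMIs summed over a class, per 1000000 UMIs of that class) in members above the cut, 5388 below it, 4566 in nuclei with B cell markers and 6112 in nuclei with epithelial markers. Nuclei with macrophage markers had 2260 CPM, so Gpx5 RNA was present in each of these BAT surgery classes, and lowest in that one. At least 1 epithelial rule marker was present in 36 of the 39 members below the cut and 19 of the 41 above it. Scrublet, a doublet caller, marked 9 and 8 of them. The part of these RNAs in the rule's calls was not tested.

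Regulators of plasma cell identity that the rule did not use were found mostly in members with antibody RNA. Irf4 was detected in 24 of the 41 BAT surgery members at or above the cut and in 3 of the 39 below it, Pou2af1 (a B-lineage coactivator) in 25 and 0, and Prdm1 in 17 and 4. At least 1 of the 3 genes was present in 31 of 41 against 7 of 39, in all 7 BeAT surgery members above the cut and in both such members of BAT sham. Per nucleus, Irf4 ranged from 0 over a median of 1 to 17 UMIs above the cut and reached 1 UMI below it. As a level within the class, Irf4 was 437 CPM (351 to 539) above the cut, 6.63 below it, 58.5 in the 40 nuclei with at least 2 of the B cell rule markers and 1.58 in nuclei with epithelial markers. The members above the cut were 7.47 times as high as the B-marker nuclei (3.88 to 16.1). Prdm1 followed with 219, 11.1, 64.4 and 8.20 CPM, a ratio of 3.40 over B-marker nuclei (1.73 to 7.29).

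Pou2af1 is active in B cells before they secrete, and its levels differed less from those nuclei. It stood at 477 CPM in members above the cut and 246 in B-marker nuclei, a ratio of 1.94 (1.34 to 2.86), and at 1.30 in nuclei with epithelial markers. Ell2, an elongation factor that favours the secreted form of heavy chain mRNA, was 830, 234 and 134 CPM in the same order. Xbp1, which the rule used, was 472 CPM above the cut and 115 below it. In BeAT surgery the 7 members above the cut had 211 CPM of Prdm1, 121 of Irf4, 482 of Pou2af1 and 1718 of Ell2, so each of these regulators was also detected there.

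**Figure D3:**
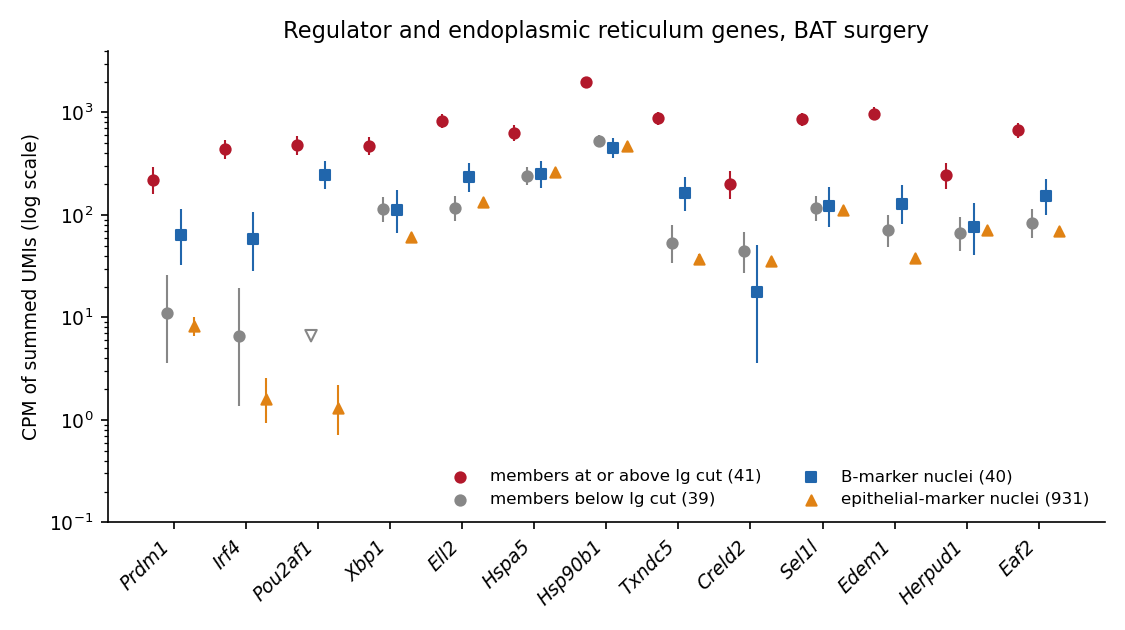
CPM of summed UMIs (log scale) for 13 regulator and endoplasmic reticulum genes in 4 classes of BAT surgery nuclei, with lines for the exact 95% Poisson interval and an open triangle for an upper limit where no UMI was found. Members at or above the cut have the highest level for every gene shown, for example 1998 CPM of Hsp90b1, and members below the cut lie near the nuclei with epithelial markers for most of them.

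Of the protein folding genes of the endoplasmic reticulum outside the rule, 10 of 18 measured were at least 2-fold higher in members above the cut than in B-marker nuclei, a difference that 8.9% of 4416 genes reached, and Calr, Canx, Pdia3 and Pdia6 were among those that did not. Hsp90b1 (the chaperone GRP94) was present at a median of 5 UMIs per nucleus in members above the cut and also in those below it, although the latter were deeper. Its level was 1998 CPM above the cut (1807 to 2203), 531 below it, 451 in B-marker nuclei and 468 in nuclei with epithelial markers, a ratio of 4.43 over B-marker nuclei (3.47 to 5.73). Single nuclei above the cut held 88 and 62 UMIs of it, a spread between nuclei that these intervals do not cover. Hspa5 (BiP, which binds unassembled heavy chains) was 631, 241, 252 and 265 CPM. The disulfide isomerase gene Txndc5 was 875, 53.1, 164 and 37.3 CPM, 5.34 times as high above the cut as in B-marker nuclei (3.57 to 8.26). Creld2 was 199, 44.2, 17.6 and 35.1 CPM, and its ratio of 11.3 had a wide interval (3.61 to 57.2). In each of these genes the members below the cut were near the nuclei with epithelial markers, with a ratio of 1.13 for Hsp90b1 (0.991 to 1.29) and 0.911 for Hspa5 (0.745 to 1.10). The BeAT surgery members above the cut had 2471 CPM of Hsp90b1, 1206 of Hspa5 and 964 of Txndc5.

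The promoters of such genes are known to carry short motifs bound in the unfolded protein response, so RefSeq promoters (assembly GRCm38.p6) were searched on both strands, from 250 bases before to 50 after each start, for the endoplasmic reticulum stress element, which is CCAAT, then any 9 bases, then CCACG, and for TGACGTGG, the core of the unfolded protein response element. The first was in 39 of 32851 promoters (0.119%) and the second in 222 (0.676%), and 2 promoters held both. Among the 19 chaperone and folding genes with a promoter in the table, 7 held the first motif: Calr, Canx, Creld2, Dnajc3, Hsp90b1, Hspa5 and Pdia6. Of these 7, Calr, Canx, Dnajc3 and Pdia6 were not past 2-fold against B-marker nuclei, so the motif was found in genes of either kind. Of 15 degradation and stress response genes, Derl3 and Syvn1 held it, and of 17 translocation genes 0 held either motif. The second motif was found in Txndc5, Txndc11, Pou2af1, Sec24d and Copb2, and also in Enpp1 and the T cell gene Cd3e. Of these, only Txndc5, Txndc11 and Sec24d were counted as 2-fold higher than in B-marker nuclei. Shown for a rule marker and for 3 of the folding genes that stood higher in members with antibody RNA are the 250 bases before the start, each read 5′ to 3′ along its gene, with the motif in capitals (beginning CGTGG and ending ATTGG where the first motif lies on the opposite strand). They are Derl3 (chr10:75893148-75893397, plus strand, motif beginning 156 bases before the start), Hsp90b1 (chr10:86705445-86705694, minus strand, 2 motifs, 212 and 107 bases before), Creld2 (chr15:88819396-88819645, plus strand, 126 bases before) and Txndc5 (chr13:38527915-38528164, minus strand, with the second motif 138 bases before).
Derl3: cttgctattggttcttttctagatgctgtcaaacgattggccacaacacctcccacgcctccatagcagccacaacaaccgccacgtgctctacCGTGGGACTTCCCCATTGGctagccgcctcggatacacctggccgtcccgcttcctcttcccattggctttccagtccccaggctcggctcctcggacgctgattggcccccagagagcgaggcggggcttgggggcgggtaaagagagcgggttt
Hsp90b1: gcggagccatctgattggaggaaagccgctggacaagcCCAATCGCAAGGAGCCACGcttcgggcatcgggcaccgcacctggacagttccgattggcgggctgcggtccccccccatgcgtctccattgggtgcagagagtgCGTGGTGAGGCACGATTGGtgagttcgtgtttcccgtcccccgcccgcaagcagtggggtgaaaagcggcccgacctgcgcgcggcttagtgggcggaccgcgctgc
Creld2: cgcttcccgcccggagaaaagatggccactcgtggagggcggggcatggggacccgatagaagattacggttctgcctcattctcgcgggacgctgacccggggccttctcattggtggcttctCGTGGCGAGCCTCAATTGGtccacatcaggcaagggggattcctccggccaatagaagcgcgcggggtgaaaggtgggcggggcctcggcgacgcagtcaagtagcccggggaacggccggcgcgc
Txndc5: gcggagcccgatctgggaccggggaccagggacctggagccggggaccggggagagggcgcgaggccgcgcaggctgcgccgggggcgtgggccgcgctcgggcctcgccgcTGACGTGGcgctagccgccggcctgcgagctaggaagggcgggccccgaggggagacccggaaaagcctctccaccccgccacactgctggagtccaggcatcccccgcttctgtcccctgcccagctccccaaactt
A match describes these letters and is not a measured binding site.

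Of the genes of degradation and of the stress response outside the rule, 9 of 13 measured were at least 2-fold higher than in B-marker nuclei. Of all 4416 genes 8.9% were. Edem1, which draws misfolded glycoproteins out of folding, had a median of 2 and a highest value of 34 UMIs in members above the cut. Its level was 974 CPM there against 70.7 below the cut, 129 in B-marker nuclei and 38.0 in nuclei with epithelial markers, 7.56 times the B-marker level (4.86 to 12.3). Sel1l, a part of the ubiquitin ligase complex that clears the endoplasmic reticulum, was 860, 117, 123 and 112 CPM, a ratio of 6.99 (4.43 to 11.6). Herpud1 was 3.20 times the B-marker level. Below the cut, Sel1l was 1.04 times and Herpud1 0.930 times the level in nuclei with epithelial markers, while Derl3, which the rule used, was 2.99 times that level.

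The secretory gene lists as a whole were then compared, leaving the rule's own genes out of every count. A gene was counted as higher or lower when its class levels differed by at least 2-fold and their mean was at least 50 CPM. Against B-marker nuclei, 8.9% of 4416 genes were higher and 14.5% lower in members above the cut, with a median log2 ratio of -0.05. Of the chaperone and folding list, 10 of 18 measured genes were higher and 0 lower (median 1.09), and of the degradation and stress list 9 of 13 were higher (median 1.37). Translocation and glycosylation genes were higher in 6 of 19 (median 0.68), and transport from the endoplasmic reticulum to the Golgi in 4 of 16 (median 0.56), among them Sec24d, Lman1 and Preb. Regulators were higher in 4 of 8, namely Prdm1, Irf4, Ell2 and Creb3l2. The B cell identity list was lower in 9 of 10 (median -2.80), although the compared nuclei were chosen for B cell genes. Of the genes the rule excluded, Pax5 had 0 UMIs in the 41 members and 108 in the 40 B-marker nuclei, and Ms4a1 0 and 56. The 9 epididymal genes had a median of 0.07, and none of them was past 2-fold. With all 80 BAT surgery members pooled against the same B-marker nuclei, 11.7% of 4459 genes were higher and 15.2% lower (median -0.03). There 4 of 18 chaperone genes, 4 of 12 degradation genes and 2 of 8 regulators were higher, and 3 of 9 epididymal genes were higher too. The 39 members below the cut hold 452299 of the UMIs in that pool and those above it 201195.

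In BeAT surgery, where the members held no epididymal RNA, all 10 were set against the 2393 B-marker nuclei of that library. Hsp90b1 stood at 2111 CPM in members against 220.4 (84 UMIs, ratio 9.57, 7.60 to 11.9), Txndc5 at 879 against 57.1 (15.4, 10.6 to 21.7) and Edem1 at 1432 against 112 (12.8, 9.64 to 16.8). Each of these ratios was above 9, with an interval down to 7.60 for Hsp90b1. Of the 84 Hsp90b1 UMIs, 29 and 23 lay in single nuclei, and a single nucleus held 22 UMIs of Edem1. The intervals do not cover this spread between nuclei. Prdm1 was 201 CPM against 10.3 on 8 UMIs (19.5, 8.16 to 40.04), while Irf4, on 6 UMIs, was 151 against 57.3 with an interval that includes 1 (2.63, 0.960 to 5.76). Of all 4230 genes, 21.7% were higher and 16.5% lower (median 0.04), so a gene past 2-fold was common among these few nuclei. Without the rule's genes, 15 of 17 chaperone genes were higher (median 2.14), as were 9 of 12 degradation genes (1.84), 9 of 12 translocation genes (1.62), 9 of 12 transport genes (1.64) and 5 of 8 regulators (1.40). Of the B cell identity list 14 of 15 were lower, which the choice of nuclei by Bank1, Pax5 and Ms4a1 partly fixes.

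Against nuclei with epithelial markers the members above and below the cut stood apart. Above it, 11.4% of 4286 genes were higher and 14.9% lower (median -0.07). There the chaperone list had 9 of 18 genes higher, the degradation list 11 of 13 and the regulators 6 of 8, with Zbtb20 lower. Below it, 1.78% of 4271 genes were higher and 1.26% lower (median -0.02). There none of 15 chaperone genes, 17 translocation genes, 14 transport genes, 8 degradation genes and 4 regulators was past 2-fold. Macrophage genes were higher on either side of the cut. They were 4 of 4 below it (Mrc1, F13a1, C1qa and Lyz2, median 2.33) and 3 of 4 above it (Adgre1, Mrc1 and F13a1, median 2.80). Progenitor genes were likewise higher on either side, 2 of 3 below it (Dcn and Col3a1, median 1.75) and 3 of 3 above it (median 1.76). Set directly against each other, members above the cut were higher than those below in 10.7% and lower in 13% of 4280 genes, with 7 of 18 chaperone genes, 11 of 13 degradation genes and 5 of 8 regulators higher and none lower. Scaling by the median of gene ratios in place of totals moved the median of all genes against nuclei with epithelial markers from -0.07 to -0.21, and left 9 of 20 chaperone genes and 10 of 14 degradation genes higher above the cut, the rule's genes included.

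**Figure D4:**
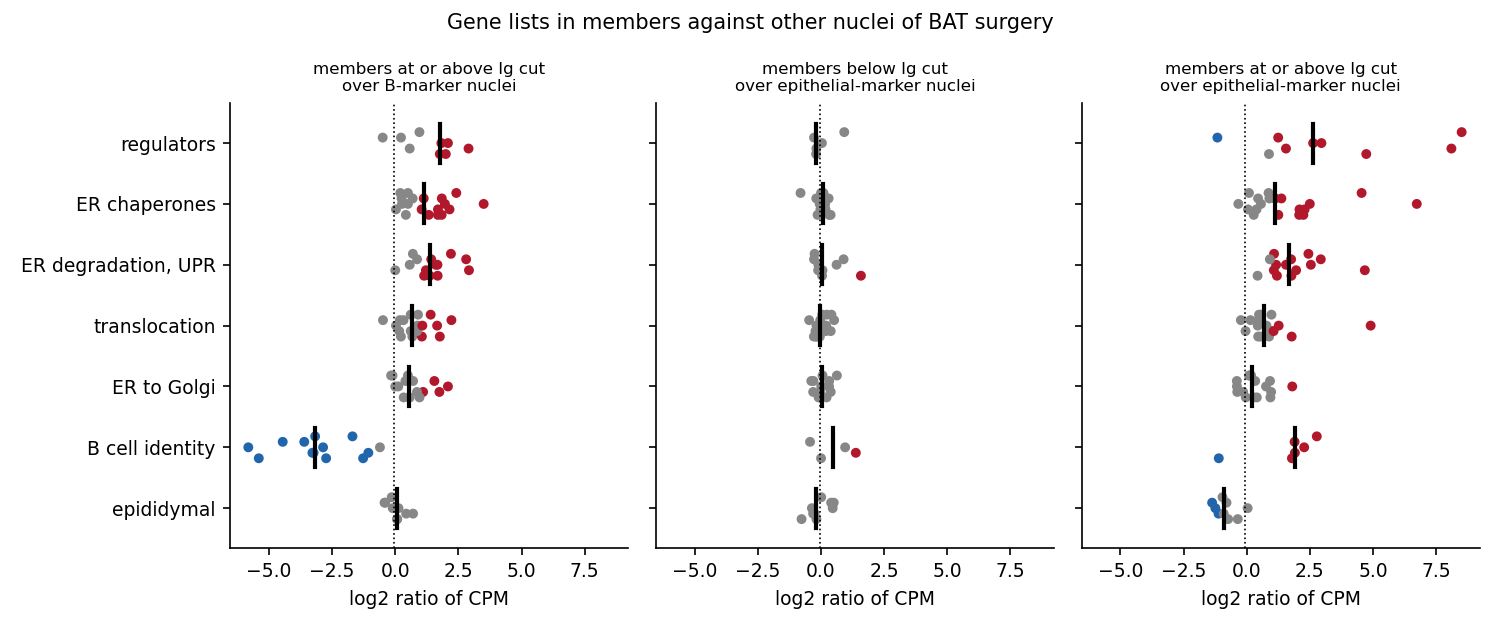
Log2 ratio of CPM for each measured gene of 7 lists (points, the rule's genes included) in BAT surgery members against B-marker or epithelial-marker nuclei, with a bar for the list's median, a dotted line at the median of all genes and with colour for genes past 2-fold. In the middle panel the members below the cut lie close to 0, and in the outer panels the chaperone (median 1.13) and degradation lists of members above it lie to the right.

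Surface and survival genes were mixed. Tnfrsf13b (TACI, a receptor for BAFF and APRIL) was 124 CPM above the cut, 2.21 below it and 52.7 in B-marker nuclei. Slamf7 was 79.5, 4.42 and 46.8 CPM, while Cd38 was lower in members, at 49.7 CPM against 258 in B-marker nuclei. Sdc1 (CD138, the usual sorting marker of plasma cells) was 34.8, 19.9 and 5.85 CPM, and 21.7 in nuclei with epithelial markers, so the members above the cut were within 2-fold of the nuclei with epithelial markers. Of 13 survival and metabolism genes, Bcl2l11, Slc3a2, Atg5 and Eaf2 were higher than in B-marker nuclei and Bcl2 was lower, where 8.9% of all genes were higher and 14.5% lower. Eaf2, an elongation factor partner, stood at 671 CPM against 152 (ratio 4.41, 2.88 to 6.99) and reached 31 UMIs in a nucleus. Of 5 homing genes, Klf2 and Itga6 were lower, and Itga4, an integrin subunit for retention in tissue, was 363 CPM against 392.

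The genes with the largest ratios were taken without regard to the lists, leaving out immunoglobulin genes, of which Iglc3 (468) and Ighg1 (436) had larger ratios against nuclei with epithelial markers than any gene named here. Against B-marker nuclei they were Ptges (prostaglandin E synthase, 22.5, interval 5.93 to 191, in 18 of 41 nuclei), Sntg1, Cpeb3 (12.2, 7.66 to 20.6, in 33 nuclei), Cadps2, Nrg2, Trp53inp1 (8.49, in 29 nuclei), Edem1 and Irf4. Sntg1 and Cadps2 rested on 6 and 7 nuclei. The lowest were BE692007, Bank1, Bcl11a, Pax5, Ripor2, Ms4a1, Aff3 and Lrrk2. Of these, Bank1, Pax5 and Ms4a1 were used to choose both classes, so their place was fixed in advance. Against nuclei with epithelial markers the highest were Gm30211, at 379 times the level (253 to 590), Pou2af1, Irf4, Jchain, Mzb1, Inpp4b, Ppp1r16b and Pik3cg, of which Jchain and Mzb1 are rule markers. For members below the cut they were Cdh13, Gm15987, Mecom, Saa3, the complement genes C1qa (7.12), C1qc and C1qb, and Fabp4 (an adipocyte and endothelial lipid carrier gene).

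Ighm led the heavy chain classes in BAT surgery members and Igha those in BeAT surgery members, a difference that was not tested. A nucleus was assigned a class when 1 constant gene had at least 5 UMIs and at least 2 times the next. Among the 41 BAT surgery members at or above the cut, Ighm had 2480 UMIs, Ighg1 147, Ighg2b 131, Igha 62, Ighg3 17, Ighg2c 7 and Ighd 2. Of the 37 that could be assigned, 27 were Ighm (73.0%, 55.9% to 86.2%), 5 Ighg2b, 2 Ighg1, 2 Igha and 1 Ighg3. All 8 assigned members below the cut were Ighm, on 7 to 19 UMIs each. In that library Ighm was also detected in 32.2% of the nuclei with epithelial markers and 38.6% of those with macrophage markers. In BeAT surgery 5 of 6 assigned members were Igha (83.3%, 35.9% to 99.6%) and 1 Ighg2b, with 145 UMIs of Igha and 4 of Ighm above the cut. The 2 assigned BAT sham members were 1 Ighm and 1 Igha, the latter with 157 Igha UMIs. Igha counts toward the rule and Ighm does not. With Igha left out of the rule, Igha made up 14.9% and Ighm 66.0% of assigned members over all libraries, against 15.1% and 67.9% with it. With Igha in the rule, 45 of the 53 assigned members were from BAT surgery. The pooled shares therefore say little about BeAT surgery, where 8 of 10 members remained without Igha. The members lost there had no assigned class, so 5 of 6 assigned members were still Igha. When at least 4 markers were required, the shares were 30.4% and 39.1%. These genes lie together on the minus strand of chromosome 12 (mm10), Ighm at chr12:113418558-113422730 and Igha at chr12:113254830-113260236.

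**Figure D5:**
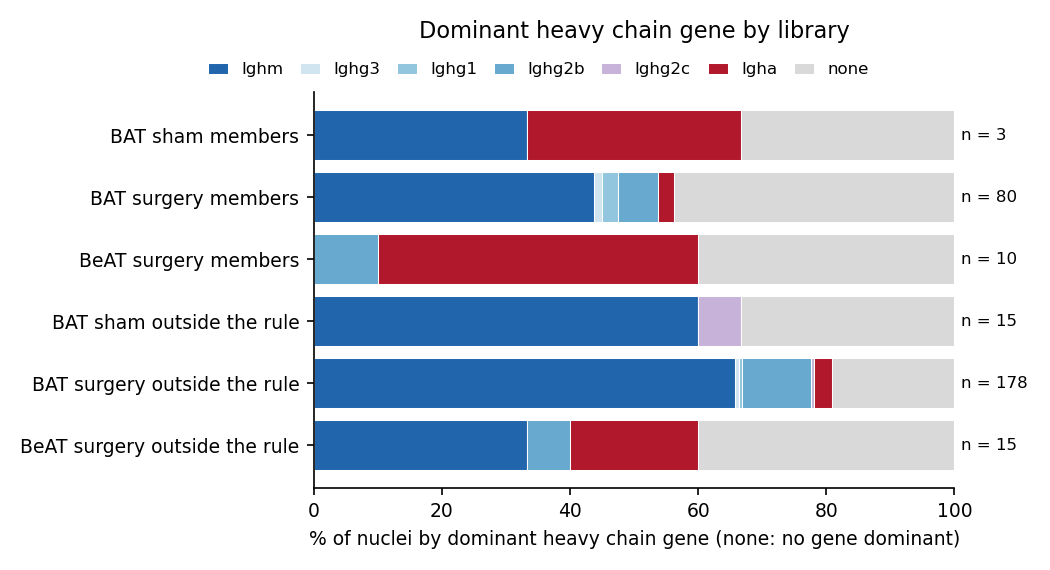
Share of nuclei by dominant heavy chain gene (horizontal, percent) for members of 3 libraries and for nuclei outside the rule that were at or above the immunoglobulin cut with at least 10 immunoglobulin UMIs. Ighm leads in BAT surgery (35 of 45 assigned members) and Igha among BeAT surgery members (5 of 6 assigned), and grey marks nuclei with no dominant gene.

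Light chains were mostly kappa. In the 41 BAT surgery members above the cut Igkc had 2700 UMIs, from 1 over a median of 18 to 1067 per nucleus, and Iglc1, Iglc2 and Iglc3 had 97, 93 and 114. Igkc was also detected in 33.9% of the nuclei with epithelial markers and 26.8% of those with macrophage markers, so a single Igkc UMI was not particular to members. Of the 41 BAT surgery members assigned a light chain, 38 were kappa (92.7%) and 3 lambda, and all 4 assigned in BeAT surgery were kappa.

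Variable segments could be assigned in few members, to the heavy chain in 7 and to the light chain in 13 (at least 3 UMIs and 2 times the next). The pair Ighv11-2 and Igkv14-126 dominated in 2 Ighm members of BAT surgery, with 17 and 4 UMIs of Ighv11-2 and 33 and 11 of Igkv14-126 among 2026 and 501 immunoglobulin UMIs. The second of these nuclei, with 26184 UMIs in all, was marked as a doublet. A further 2 Ighm members had 4 UMIs of Igkv14-126 each. At least 1 UMI of either segment of the pair occurred together in 6 BAT surgery members, in 3 other nuclei of that library, all 3 above the cut, and in none of the other libraries. Outside the members Ighv11-2 never exceeded 1 UMI in a nucleus of BAT surgery. Among the 9525 other nuclei below the cut there, 53 had a UMI of Igkv14-126 and 0 had 3 or more. As background, this pairing is known from B-1a cells whose IgM binds phosphatidylcholine. The assignment is uncertain, since reads of near-identical variable segments may have been split or merged in counting. Ighv11-2 lies at chr12:114048241-114048812 on the minus strand and Igkv14-126 at chr6:67896172-67896642 on the plus strand (mm10).

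Some members carried cell cycle RNA. At least 3 of 21 proliferation genes were detected in 4 of the 41 BAT surgery members above the cut. The same held for 2 of the 39 below it and 6 of the 40 B-marker nuclei there. In BeAT surgery it held for 3 of the 7 members above the cut and 268 of the 2393 B-marker nuclei. Of those 7 members 1 had Mki67 and 0 had Top2a, against 285 and 251 of the 2393. Mki67 was present in 10 of the 41, with up to 11 UMIs in a nucleus, and stood at 199 CPM against 4.42 below the cut. Most of its UMIs lay in nuclei with 11, 10 and 10, the last of them marked as a doublet. Mki67 was also present in 5 of the 40 B-marker nuclei, with up to 15 UMIs. Against those nuclei 0 of 2 measured cell cycle genes were past 2-fold.

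Markers of other cells were also present among members. In BAT surgery the 8 macrophage genes summed to 232 UMIs in members above the cut (0 to 82 per nucleus) and 474 below it (0 to 191), and the adipocyte genes to 173 and 321. In BeAT surgery a T and NK cell list had 64 UMIs in the 7 members above the cut (0 to 26 per nucleus). Their part in the levels given above was not tested. Scrublet marked 17 of the 80 BAT surgery members and 2 of the 10 BeAT surgery members as doublets, among 7.88% and 10.4% of all kept nuclei, and none in BAT sham. Just outside the rule, exactly 2 of the 6 markers were present in 607 nuclei of BAT surgery and 48 of BeAT surgery, with median immunoglobulin shares of 0.0111% and 0.0723%, and in 56 of BAT sham and 34 of BeAT sham, with medians of 0. Just inside it, the 61 BAT surgery members with exactly 3 markers had a median of 0.171%.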

How the data were processed

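Nuclear RNA of 4 mouse adipose tissue samples was counted with a SeekGene single-cell protocol, per the labels, which also describe minced, digested tissue and viable cells. The authors deposited raw UMI counts per gene and barcode for 32285 genes. The submitters' processing notes name mm10 and Seurat 4.4.0 and 4, while the aligner and the counter were not given in the sources used here, so how reads of overlapping or near-identical genes were counted is unknown. The members and lists were chosen with earlier results of these data known, and the immunoglobulin cut and the comparisons on either side of it were chosen after seeing the data.

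From these counts, barcodes with at least 300 genes and under 10% mitochondrial UMIs were kept (36690 of 36760). Levels are summed UMIs of a class per 1000000 (CPM). Genes with a mean of at least 50 CPM over the compared classes were called at 2-fold, and genes with 0 UMIs in a class were set at 3 counts. With 1 library per group no test across libraries was possible. Shares have exact Clopper-Pearson intervals, levels exact Poisson intervals and ratios exact conditional binomial intervals. Named genes were rule markers, constant and list genes, and the 8 highest and lowest of a comparison among genes with 50 or more UMIs, immunoglobulin genes apart. The tissue marker genes and Ighv11-2, Igkv14-126 were singled out after their values were seen. Doublets were marked with Scrublet in scanpy 1.11.5 and kept, with removal as an alternative. For both sham libraries the top 6% were marked. The ratio calls were tested on simulated data, where 200 of 200 genes changed 4-fold and 10 of 3933 unchanged genes were called. The simulated counts had no spread between nuclei and 326747 UMIs in the members' class, against 201195 in the BAT surgery members above the cut. Comparisons with B-marker nuclei were not simulated, so these rates do not carry over to sums of few, uneven nuclei. Coordinates are GENCODE M21 (mm10), which matched 32235 of 32285 gene identifiers. Scripts used Python 3.11.15, numpy 2.4.6, scipy 1.17.1 and pandas 2.3.3.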

Additional observations from a re-analysis of the deposited data

How the results depend on the processing

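With 1 library per group, the differences rest on 1 sample each, and depth limits small counts. The BAT surgery share was 0.191% (19 members) with at least 4 of 6 markers, 0.624% without Igha, 0.302% without Xbp1, 0.251% with no epithelial marker and 0.0655% (6 members) after thinning to 1000 UMIs, where BeAT surgery gave 0.0568%. The BAT ratio was 8.73 and 3.05 under the last 2 settings, and thinning gave no BeAT ratio. Dominant Igha was 30.4% with at least 4 markers and 28.6% without Xbp1, and Ighm 39.1% and 46.4%. The members' immunoglobulin share of 1.03% was 3.46% with at least 4 markers, 1.24% with doublets removed and 0.471% as a median over nuclei. At a mean of 100 CPM, higher and lower genes numbered 247 and 348 for members above the cut against nuclei with epithelial markers, 27 and 21 for members below it, and 181 and 288 against B-marker nuclei. With doublets removed, 82 genes were lower in members below the cut. The comparison of BAT surgery with BeAT surgery members was not run, since it needed 20 members per library. No paired analysis was possible because each group is 1 library.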

Other observations

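Nuclei outside the rule also carried antibody RNA. At or above the cut of 0.404%, with at least 10 immunoglobulin UMIs, fewer than 2 B cell and fewer than 3 epithelial markers, were 178 nonmembers in BAT surgery against 15 in BAT sham, and 15 in BeAT surgery against 2 in BeAT sham. Of the 178, 38 had none of the 6 rule markers, 62 had 1 and 66 had 2. Their class was Ighm in 117 of 144 assigned nuclei (81.3%, exact binomial interval 73.9% to 87.3%), Ighg2b in 19 and Igha in 5. In BeAT surgery 5 of 9 were Ighm and 3 Igha, so Igha was not the leading class there. The 178 had 331 CPM of Irf4, 361 of Pou2af1, 167 of Prdm1, 1121 of Hsp90b1 and 319 of Edem1, and 9282 of Gpx5. An immunoglobulin share of at least 1% was found in 90 nonmembers and 25 members of BAT surgery, and in 4 and 6 of BeAT surgery.

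The B cell exclusion removed 24 nuclei of BeAT surgery that met the marker part of the rule, of which 7 were at or above the cut, and 5 of BAT surgery, of which 2 were. The epithelial exclusion removed 33 nuclei, all in BAT surgery, of which 2 were at or above it.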
